A study of Bos taurus with 6 samples.

Results

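The nuclear genes for the subunits of respiratory complexes II, III, IV and V were described in cattle RNA from 3 superstimulated and 3 non-superstimulated cows. Members were all array probes annotated as SDHA, SDHB, SDHC, SDHD or CYC1, or with a symbol that begins with UQCR, COX4, COX5, COX6, COX7, COX8 or ATP5. This took 68 of the 21790 probes with a symbol, or 44 of 15216 genes. By complex these were 4 genes of complex II, 8 of complex III, 15 of complex IV and 16 of complex V. The remaining gene, EMC8, was taken because the platform still calls it COX4NB, the neighbour of COX4I1. It encodes a subunit of a membrane complex of the endoplasmic reticulum and is no respiratory subunit. Of the 44 genes, 42 (63 probes) were tested. COX6A2, the muscle form of COX6A, and COX6B2, known in mammals from testis, exceeded the negative control spots on 0 of 6 arrays in both channels, so their levels had no measured order. No probe matched UQCRFS1, the Rieske iron-sulphur subunit of complex III, or COX4I2, the lung and hypoxia form of COX4. The subunits encoded in mitochondrial DNA lay outside the rule.

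These complexes form the later part of oxidative phosphorylation in the inner mitochondrial membrane. Complex II, succinate dehydrogenase, passes electrons from succinate of the tricarboxylic acid cycle to ubiquinone. Complex III passes them on to cytochrome c, and complex IV, cytochrome c oxidase, passes them to oxygen. Complexes III and IV pump protons, and complex V, the ATP synthase, uses their return to make ATP. In the ovary, the oocyte relies on mitochondrial ATP, while granulosa cells, which surround it, also use glycolysis and make steroids in their mitochondria.

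Superstimulation gives cows repeated gonadotropin so that a whole cohort of ovarian follicles develops. Per the labels, all 6 animals were multiparous beef cows, samples were dissected and frozen in liquid nitrogen, and gonadotropins were the hormone recorded for both groups, the reference included. The labels name no tissue, dose, time or age. Cow 1 of the superstimulated group shared its arrays with cow 1 of the other group, and likewise for cows 2 and 3. Each of these 3 pairs was measured on 2 arrays with the dyes Cy3 and Cy5 exchanged, and these 2 arrays counted as 1 replicate. Arrays 1 to 3 lay on one slide and the swapped arrays on another, so slide and dye orientation cannot be told apart. The labels do not settle the direction. The dye fields put superstimulated RNA in Cy5 on arrays 1 to 3, which is the reading used here, while the design description gives Cy3 for it. Under that second reading every sign below turns, and each value given for a superstimulated cow belongs to the non-superstimulated cow of the same number.

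Ratios are given as log2 of superstimulated over non-superstimulated, and levels as log2 intensity of a probe in each cow, from separate channels averaged over both dyes. A gene was represented by its brightest probe. Median array intensities were 152 to 299 in red and 161 to 283 in green, and 47.3% to 63.2% and 65.4% to 71.2% of probes exceeded the negative controls. Of the 42 member genes, 38 exceeded them in both channels on all arrays. Non-superstimulated cow 3 was the cow most often at either end of the 6 levels. Its level was the highest of the 6 cows for 31.7% of the 12334 genes tested and the lowest for 27.7%. Of 13 granulosa markers 12 passed the filter and FOXL2 never exceeded the controls. Their summed linear intensity was 106454 to 118615 in superstimulated and 92193 to 106051 in non-superstimulated cows. The sum of 12 theca and stroma markers was 13691 to 28830 against 5866 to 11511. Both sums were thus higher in every superstimulated cow, but the markers did not move together. LUM, a stromal proteoglycan with pair ratios of -0.06, 4.02 and 4.38, carried most of the theca and stroma sum in superstimulated cows 2 and 3, while the smooth muscle gene MYH11 had ratios of -0.92, -1.10 and -4.25. The median ratio of that list was 0.01, with 7 genes above 0 and 5 below. In the granulosa list FSHR, the receptor for follicle-stimulating hormone, and NR5A2, a steroidogenic regulator, had means of -0.53 and -0.85. In that list 7 genes lay above 0 and 5 below, with INHA at 0.61 and SERPINE2 at 0.42. The part of these markers in the results below was not tested. In such bulk RNA, fewer cells of a type and less RNA per cell cannot be told apart.

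Over the 3 pairs, no subunit gene passed the test between the groups, while most subunit genes differed between the pairs. With limma and Benjamini-Hochberg adjustment over all genes, 0 of 42 members passed a threshold of 0.05 against 0% of all genes, and the lowest adjusted p of any gene was 0.995. At an unadjusted p under 0.05 there were 2 of 42 members, COX4I1 and ATP5MC1, or 4.76% against 3.6% of all genes. The median ratio of the 42 members was -0.04 in pair 1, -0.16 in pair 2 and 0.78 in pair 3, where the medians of all genes were -0.01, -0.02 and -0.01. In pair 3 the members ranged from -0.71 to 2.31, and 37 of 42 had a ratio above 0, against 5979 of 12334 genes. The ratio of pair 3 was above those of both other pairs for 39 of 42 members (92.9%), against 38.5% of all genes. In the mean of the 3 pairs 28 of 42 members (66.7%) lay above 0, against 45.3% of all genes. The median of the means was 0.15, and without pair 3 it was -0.12. The ratio had 1 sign in all 3 pairs for 8 members that were higher (19% against 9.89%) and 5 that were lower (11.9% against 13.1%). The lower members were UQCRH, COX7A1, ATP5F1D, ATP5MC1 and ATP5MC2, and the higher ones were UQCR10, UQCRC1, COX4I1, COX5B, COX6B1, ATP5F1E, ATP5MG and ATP5PF.

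The same contrast between pairs appeared when each pair was set against the disagreement of its own 2 arrays. This limma model used all 6 arrays, with a term for each pair and a term for dye. Its error is technical and does not cover the spread between cows. In pair 3, 32 of 42 members were higher (76.2%, against 27.3% of all genes), and 1 was lower, ATP5MC2 (2.38% against 19.6%). In pair 2, 16 members were lower (38.1% against 21.8%) and COX4I1 alone was higher (2.38% against 13.8%). In pair 1, 4 members were lower, namely SDHA, CYC1, UQCR11 and UQCRQ (9.52% against 6.92%), and 0 were higher against 3.83%. The ratio differed between the pairs for 35 members (83.3% against 51.1%), and 11 members were both lower in pair 2 and higher in pair 3 (26.2% against 9.66%). Dim genes were fewer among the members: 38 of 42 exceeded the controls in both channels on all arrays, against 7305 of 12334 genes. Within these, 81.6% of members against 34.4% of genes were higher in pair 3, and 42.1% against 30.5% were lower in pair 2. The ratio differed between the pairs for 34 of these 38 members and 5129 of these 7305 genes. Without pair 3, 19 of the 42 members differed between the pairs, a count not made over all genes. In the authors' deposited log2 values the member medians of the 3 pairs were -0.07, -0.22 and 0.81. The 2 arrays of pair 3 differed there by a median of 0.65 over the members, against 0.29 here, and fewer genes passed: 14 of 42 members were higher in pair 3 against 9.86% of all genes, 12 differed between pairs against 17.3%, and 1 was lower in pair 2 against 6.95%.

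**Figure D1:**
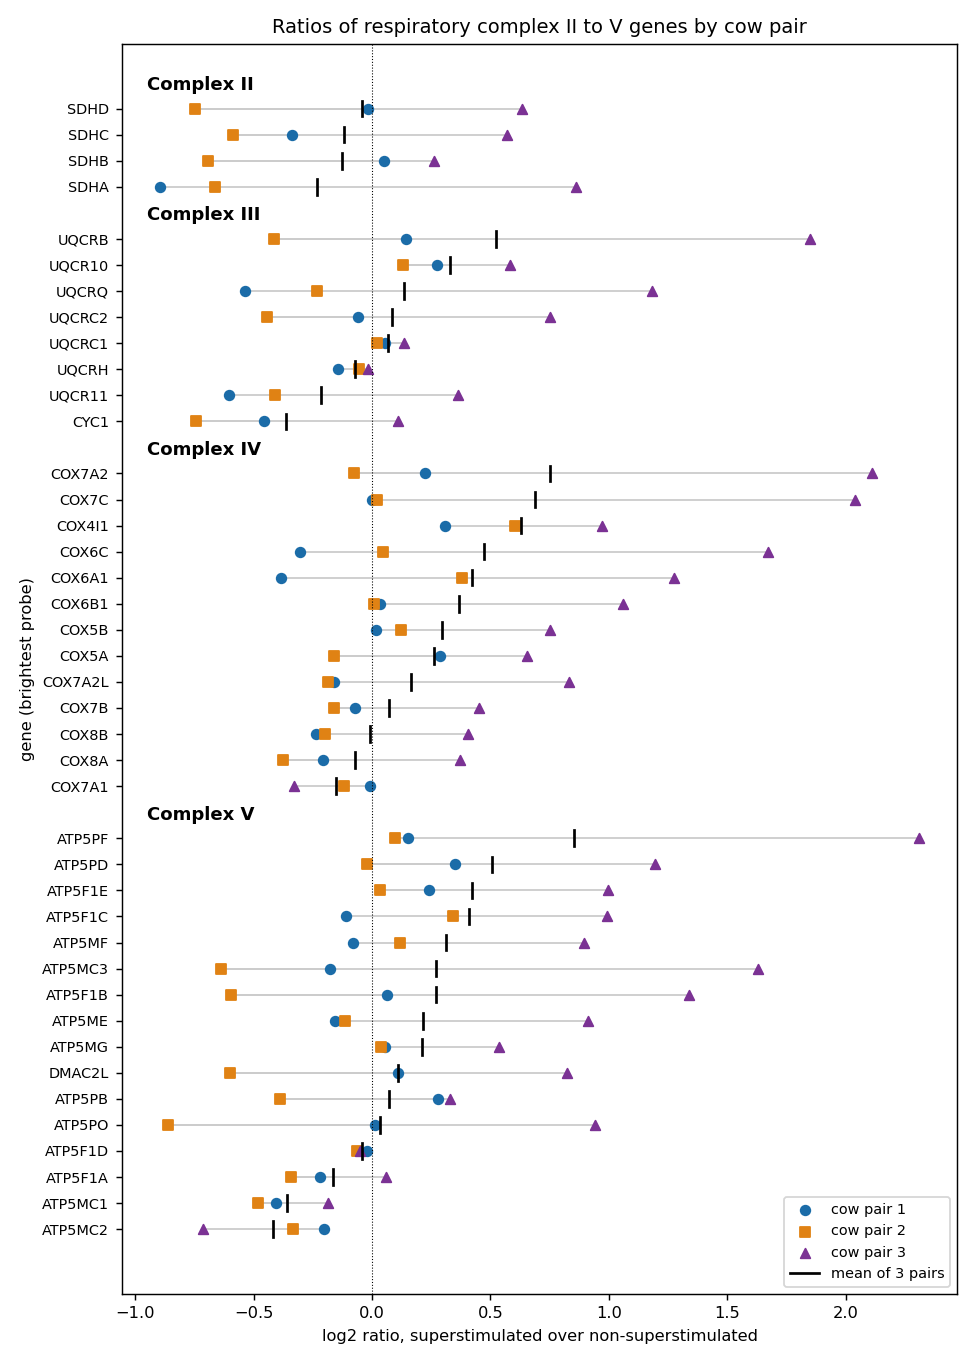
Log2 ratio of superstimulated over non-superstimulated for the 41 tested genes of complexes II to V; each symbol is 1 cow pair (mean of 2 arrays with exchanged dyes) and the black bar is the mean of 3 pairs. Triangles (pair 3) lie to the right of both other symbols for nearly all genes, and ATP5MC2, COX7A1 and ATP5MC1 are among the few with a pair 3 ratio below 0.

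The levels of single cows showed which animal of pair 3 departed from its group. Non-superstimulated cow 3 had the lowest level of the 6 cows for 29 of 42 members (69%, against 27.7% of all genes). It lay below both other non-superstimulated cows for 35 of 42, a count not made over all genes. The highest level lay in superstimulated cow 3 for 9 members (21.4% against 15.8%). Against the mean of the other cows of its group, non-superstimulated cow 3 had a median difference of -0.81 over the members, and superstimulated cow 3 one of -0.02. By complex, the median difference of non-superstimulated cow 3 was -0.49 for complex II, -0.79 for complex III, -0.85 for complex IV and -0.92 for complex V. Superstimulated cow 3 differed by 0.59, 0.03, -0.04 and -0.07. By these medians, complex II was the complex where both cows of pair 3 differed from their groups, in opposite directions. Superstimulated cow 3 lay above both cows of its group for 3 of the 4 genes of complex II. Non-superstimulated cow 3 lay below both of its group for 3 of 4. Single genes of other complexes, such as COX5B and ATP5F1B, showed both differences too. The lowest cow was non-superstimulated cow 3 for 27 members on the first slide alone and 30 on the swapped slide alone, without a count over all genes. These levels are descriptions and carry no test, and the step that equalised intensities between arrays did not set the count, which was 29 without it too.

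**Figure D2:**
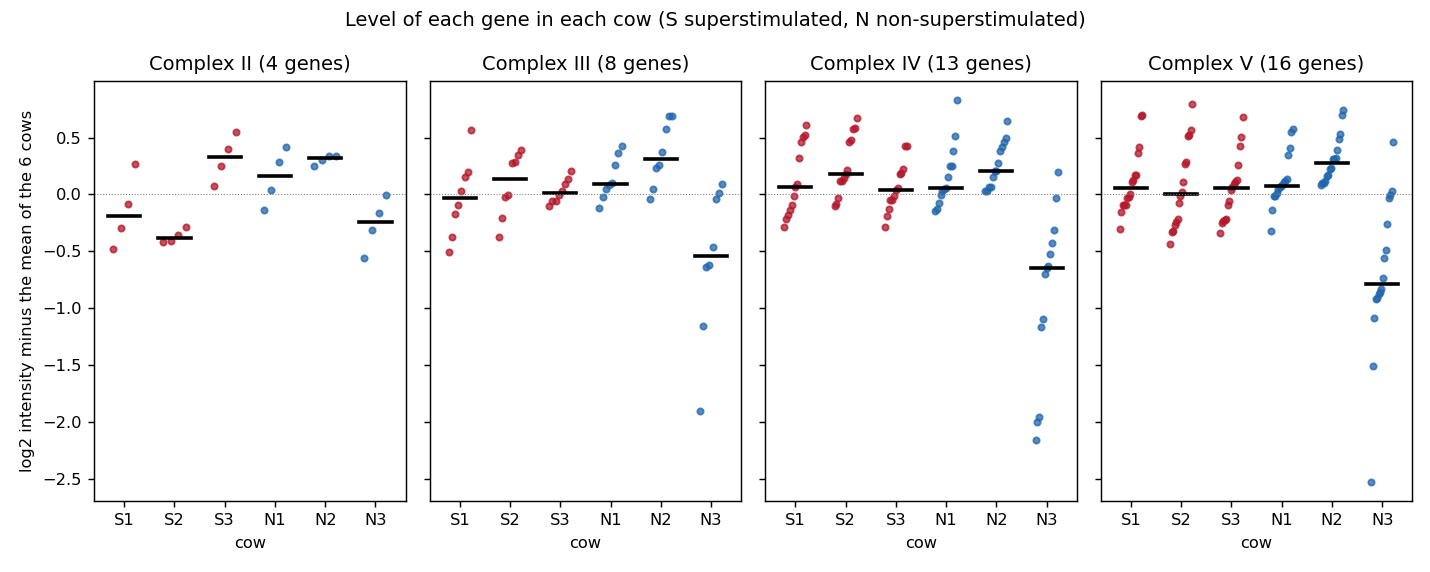
Level of each gene in each cow as log2 intensity minus its mean over the 6 cows, by complex; S marks superstimulated and N non-superstimulated cows, points are genes and bars their medians. N3 lies lowest in complexes III, IV and V, whereas in complex II the lowest median is that of S2 and the highest that of S3.

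In cow 3 of the non-superstimulated group other measures moved too. The summed intensity of leukocyte markers, of which 5 of 10 passed the filter and CD79A, CSF1R, ITGAM and TYROBP never exceeded the controls, was 6916 there and 3115 to 3886 in the other 5 cows. PTPRC, the pan-leukocyte antigen CD45, had a level of 12.54 in that cow and 11.10 to 11.52 in the others, and it carried this difference. The other 4 leukocyte markers that passed (CD68, LAPTM5, CD3D and CD3E) were at 6.90 to 7.21 there and 6.75 to 7.57 elsewhere. MYH11 was at 11.57 in the same cow and 6.02 to 7.83 in the others. The sum of the granulosa markers was lowest there, at 92193. Some granulosa markers were low in both cows of pair 3. CYP19A1, aromatase, was at 8.38 and 7.87 in superstimulated and non-superstimulated cow 3 and at 10.53 to 12.39 in the other cows. INHBB, an inhibin and activin subunit, was at 10.18 and 9.42 against 12.59 to 12.99. Other markers of the list did not follow. SERPINE2 was at 15.11 and 14.81 in these cows against 14.58 to 15.17. INHA was low in non-superstimulated cow 3 only, at 13.61, with 15.03 in superstimulated cow 3 and 14.46 to 15.16 in the others. These markers were chosen after their values were seen. Red cell, oocyte, endothelial and striated muscle markers summed to at most 1311 in any cow, and none of the endothelial, red cell or oocyte markers exceeded the controls on all arrays. The part of these differences in the subunit levels was not tested.

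In complex II all 4 genes were lower in pair 2 (100% against 21.8%), and 3 of 4 were higher in pair 3 (75% against 27.3%). Its median ratios were -0.18, -0.68 and 0.60 in pairs 1, 2 and 3. The median of the 3 pair means was -0.12, and it was 0.14 without pair 2 and -0.42 without pair 3. SDHA carries the flavin that oxidises succinate, and SDHB holds the iron-sulphur clusters. The level of SDHA was 11.18, 11.24 and 12.21 in superstimulated cows 1 to 3 and 12.08, 11.91 and 11.35 in non-superstimulated cows 1 to 3. Superstimulated cow 3 was thus the highest of all, and the other cows of its group were the lowest. The pair ratios of SDHA were -0.90, -0.66 and 0.86, each beyond the swap error (adjusted p = 0.002, 0.0013 and 0.00028 by limma), with a mean of -0.23 ± 0.96 (SD, n = 3 pairs). SDHB was at 13.68, 13.41 and 14.02 in superstimulated and 13.63, 14.10 and 13.76 in non-superstimulated cows. Its ratios of 0.05, -0.69 and 0.26 passed the test in pair 2 only. A second, dimmer probe of SDHB gave 0.07, -0.69 and 0.49 and passed in pair 3 too (adjusted p = 0.0048 by limma). On that probe non-superstimulated cow 3 was the lowest cow, at 10.17.

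SDHC and SDHD anchor the enzyme in the membrane and bind ubiquinone and a haem. SDHC stood at 9.05, 9.06 and 9.75 in superstimulated cows and at 9.38, 9.65 and 9.18 in the others, with pair ratios of -0.34, -0.59 and 0.57. As for SDHA, superstimulated cow 3 was the highest of the 6. SDHD stood at 13.08, 12.40 and 12.88 against 13.09, 13.14 and 12.25, with ratios of -0.01, -0.75 and 0.63. Here the low cows were superstimulated cow 2 and non-superstimulated cow 3. A second, dim probe of SDHD gave -0.08, 0.03 and 0.14 and did not show the pair differences.

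Complex III had 3 of 8 genes lower in pair 1 (37.5% against 6.92% of all genes), 4 lower in pair 2 (50% against 21.8%) and 5 higher in pair 3 (62.5% against 27.3%), with medians of -0.10, -0.32 and 0.47. Its median over the pair means was 0.08, and its sign was not stable: it was -0.19 without pair 3, -0.05 in the authors' deposited log2 values and -0.06 on the first slide alone. CYC1, cytochrome c1, hands electrons to cytochrome c. Its level was 8.59, 8.59 and 9.17 in superstimulated and 9.05, 9.33 and 9.06 in non-superstimulated cows, and its ratios were -0.46, -0.75 and 0.11. CYC1 had the lowest mean ratio of the complex, -0.36 ± 0.44 (SD, n = 3 pairs, 95% confidence interval -0.997 to 0.27). A second probe of CYC1 gave 0.25, 0.17 and -0.56, opposite in each pair. UQCRC1 and UQCRC2 are the core proteins that face the matrix. UQCRC2 was at 11.71, 11.30 and 11.65 against 11.77, 11.75 and 10.89, so that non-superstimulated cow 3 was the lowest, and its ratios were -0.06, -0.44 and 0.75. UQCRC1 was dim, with each group above the controls on 3 of 6 arrays, and its ratio followed the dye, at -0.59, -0.58 and -0.65 on the first slide and 0.70, 0.62 and 0.92 on the swapped one. Its mean of 0.07 rests on that cancellation.

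The small subunits of complex III differed among themselves. UQCRB, which lies near the ubiquinone site, was at 12.02, 11.73 and 11.40 in superstimulated cows and 11.87, 12.14 and 9.55 in the others. Its ratios were 0.14, -0.42 and 1.85, and non-superstimulated cow 3 lay below the remaining 5 cows. UQCR10 was at 11.71, 11.94 and 11.49 against 11.44, 11.81 and 10.91. It had a ratio above 0 on all 6 arrays, as did 3 of 42 members (7.14% against 3.13% of all genes), with pair values of 0.27, 0.13 and 0.58 and a mean of 0.33 ± 0.23 (SD, n = 3 pairs, 95% confidence interval -0.06 to 0.72). UQCR11 went the other way in pairs 1 and 2, at 11.82, 12.61 and 12.22 against 12.42, 13.02 and 11.86, with ratios of -0.60, -0.41 and 0.36. UQCRQ and UQCRH, the remaining members, had means of 0.14 and -0.07. UQCRH was dim, and its 3 superstimulated cows (7.05 to 7.14) all lay below the others (7.16 to 7.19), by margins smaller than the median swap difference of 0.31 in pair 1.

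Complex IV had the largest median of the 4 complexes, 0.30, with 10 of 13 genes above 0, and 12 of 13 were higher in pair 3 (92.3% against 27.3%). Its pair medians were -0.01, -0.08 and 0.83, and without pair 3 the median was -0.0039. COX4I1, the ubiquitous form of the subunit that binds ATP and adjusts the rate of the enzyme, had the smallest p of the members. Its level was 11.83, 12.03 and 11.17 in superstimulated cows 1 to 3 and 11.52, 11.43 and 10.20 in non-superstimulated cows 1 to 3. Each superstimulated cow lay above its partner, although superstimulated cow 3 lay below 2 cows of the other group. The pair ratios were 0.31, 0.60 and 0.97, all 6 arrays lay above 0 (0.20 to 1.02), and the mean was 0.63 ± 0.33 (SD, n = 3 pairs, 95% confidence interval 0.12 to 1.13). Its unadjusted p was 0.0278 and its adjusted p 0.995 by limma. Without 1 pair the mean ranged from 0.46 to 0.79.

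COX5A and COX5B flank the catalytic core that mitochondrial DNA encodes. COX5B was the only member whose superstimulated cows, at 14.74, 14.82 and 14.90, all lay above the other cows, at 14.72, 14.70 and 14.15 (2.38% of members against 2.57% of all genes). The nearest cows of both groups were close to each other, and its ratios were 0.02, 0.12 and 0.75. COX5A stood at 15.01, 14.80 and 14.64 against 14.72, 14.96 and 13.99, with ratios of 0.29, -0.16 and 0.65. Non-superstimulated cow 3 was again the lowest for both genes on their brightest probes. A dimmer COX5A probe was lowest in non-superstimulated cow 1, at 10.61. Another was lowest in superstimulated cow 3, at 8.93 against 8.99 in non-superstimulated cow 3.

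The small subunits of complex IV stabilise the enzyme and its dimer. All 8 small subunits other than the muscle isoforms (COX5B, COX6A1, COX6B1, COX6C, COX7A2, COX7B, COX7C and COX8A) were higher in pair 3, with a median of 1.17 and a range of 0.37 (COX8A) to 2.11 (COX7A2). COX7A2, the form found in most tissues, was at 14.54, 14.50 and 13.88 in superstimulated cows and 14.31, 14.58 and 11.77 in the others. COX7C was at 13.16, 13.13 and 12.69 against 13.16, 13.10 and 10.65. For both genes, cows 1 and 2 of the groups were nearly level and non-superstimulated cow 3 was over 2 log2 units below every other cow. The pair ratios of COX7A2 were 0.22, -0.08 and 2.11 and its mean was 0.75 ± 1.19 (SD, n = 3 pairs). Those of COX7C were -0.00, 0.02 and 2.04 with a mean of 0.69 ± 1.17 (SD, n = 3 pairs). COX6A1, the common form of COX6A, was at 14.16, 14.89 and 14.48 against 14.55, 14.51 and 13.20, with ratios of -0.39, 0.38 and 1.28. COX6C and COX6B1 also passed 2-fold in pair 3, as did 11 of 42 members (26.2% against 8.41% of all genes). In pair 2, 0 of 42 members were 2-fold or more lower, against 6.42% of all genes.

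Further genes of complex IV showed less of this. COX7A2L, a factor that joins complexes III and IV into supercomplexes, was at 13.48, 13.35 and 13.57 against 13.64, 13.54 and 12.74, with ratios of -0.16, -0.18 and 0.83. COX8A, the common form of COX8, was at 10.97, 11.37 and 11.31 against 11.18, 11.75 and 10.94 and had the second lowest mean of the complex, at -0.07 ± 0.39 (SD, n = 3 pairs). COX7A1, the heart and muscle form of COX7A, was the single gene of the complex not higher in pair 3. Its level was 8.53, 8.46 and 8.41 in superstimulated cows and 8.54, 8.58 and 8.74 in the others, so the groups did not overlap, as for 3 of 42 members in this direction (7.14% against 3.34% of all genes). The ratios of COX7A1 were -0.01, -0.12 and -0.33, none of them beyond the swap error, and non-superstimulated cow 3 had the highest level. COX7B and COX8B, the latter known from muscle and brown fat, had means of 0.07 and -0.01.

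Complex V had a median of 0.21 over the pair means, with 12 of 16 genes above 0, and -0.10 without pair 3. Its pair medians were -0.00, -0.22 and 0.90, with 7 genes lower in pair 2 (43.8% against 21.8%) and 11 higher in pair 3 (68.8% against 27.3%). ATP5F1A and ATP5F1B are the alpha and beta subunits of the catalytic head. ATP5F1B was at 14.49, 14.05 and 14.82 in superstimulated and 14.43, 14.64 and 13.48 in non-superstimulated cows. Its highest and lowest cows were thus those of pair 3, and its ratios were 0.06, -0.59 and 1.34. ATP5F1A did not follow it. It was at 14.76, 14.62 and 14.95 against 14.98, 14.96 and 14.88, with ratios of -0.22, -0.34 and 0.06, and its pairs were not called different (adjusted p = 0.082 by limma). Of the other head and shaft subunits, ATP5F1C and ATP5F1E were higher in pair 3, at 0.99 and 1.00, and ATP5F1D, at -0.05, was not and was dim.

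The peripheral stalk, which keeps the catalytic head from turning with the rotor, had all 4 members above 0 in the mean. ATP5PF, coupling factor 6, had the largest mean ratio of all members. Its level was 13.88, 13.97 and 12.96 in superstimulated and 13.72, 13.87 and 10.65 in non-superstimulated cows. Cows 1 and 2 of both groups stood close together, both cows of pair 3 were lower, and non-superstimulated cow 3 was the lowest by over 2 log2 units. The ratios were 0.15, 0.10 and 2.31, all 6 arrays lay above 0, and the mean was 0.85 ± 1.26 (SD, n = 3 pairs, 95% confidence interval -0.86 to 2.57). Without pair 3 the mean of ATP5PF was 0.13. ATP5PD was at 11.56, 11.49 and 11.31 against 11.21, 11.51 and 10.11, with ratios of 0.35, -0.02 and 1.20. ATP5PB and ATP5PO had means of 0.07 and 0.03. The membrane subunits ATP5ME, ATP5MF and ATP5MG, which sit where the synthase forms dimers, were all higher in pair 3, at 0.54 to 0.91.

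The 3 genes of the c ring, the rotor that protons turn, split in pair 3. They encode the same mature protein behind different import sequences. ATP5MC1 was at 14.02, 13.69 and 13.79 in superstimulated and 14.42, 14.18 and 13.98 in non-superstimulated cows. On this brightest probe of ATP5MC1 each superstimulated cow lay below its partner. The ratios were -0.40, -0.48 and -0.19, with a mean of -0.36 ± 0.15 (SD, n = 3 pairs, 95% confidence interval -0.67 to -0.05). Its unadjusted p was 0.0346 and its adjusted p 0.995 by limma. A part of its ratio followed dye and slide (adjusted p = 0.014 by limma). The first slide gave -0.72, -0.69 and -0.78 in pairs 1 to 3, and the swapped one -0.09, -0.28 and 0.41. ATP5MC2 was at 9.99, 9.92 and 9.88 against 10.19, 10.25 and 10.60. Its groups did not overlap, and its ratios were -0.20, -0.33 and -0.71. By the brightest probe of each gene, it was the only member lower in pair 3 (adjusted p = 0.00067 by limma, against the swap error). Dimmer probes of CYC1 and COX5A were lower there too, at -0.56 and -0.31 (adjusted p = 0.0099 and 0.036 by limma). The ratio of ATP5MC2 also held a part that followed dye and slide (adjusted p = 0.010 by limma). It was -0.51, -0.54 and -1.09 on the first slide and 0.11, -0.13 and -0.33 on the swapped one. ATP5MC3 was at 10.25, 10.19 and 10.20 against 10.43, 10.83 and 8.57, with ratios of -0.18, -0.64 and 1.63. All 3 genes were lower in pair 2, and in non-superstimulated cow 3 ATP5MC2 had its highest level and ATP5MC3 its lowest. Such related genes, like COX7A2 and COX7A2L, can share signal on an array where their sequences are alike, and cross-hybridisation was not tested. DMAC2L, which the platform calls ATP5S and which is no core subunit, had ratios of 0.11, -0.60 and 0.82.

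Of the 42 genes, 14 had several probes that passed the filter. In 4 of these (ATP5MC1, COX5A, DMAC2L and SDHD) the probes gave means of opposite sign, and in 3 (ATP5MC1, COX5A and CYC1) opposite signs in pair 3. The 3 probes of COX6A1 gave 1.25 to 1.28 in pair 3, those of COX7A2 gave 1.66 and 2.11, and the 3 of COX7A2L gave 0.66 to 0.83. The probes of ATP5MC1 gave -0.19, 0.14 and 0.90 in that pair. A ratio of ATP5MC1 below 0 in all 3 pairs therefore holds for its brightest probe alone. In pair 3 only the dimmest probe of ATP5MC1 was beyond the swap error (adjusted p = 0.00036 by limma). COX5A had the widest disagreement, with 1 of its 4 probes at 2.17 in pair 1 and the others at 0.07 to 0.29.

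**Figure D3:**
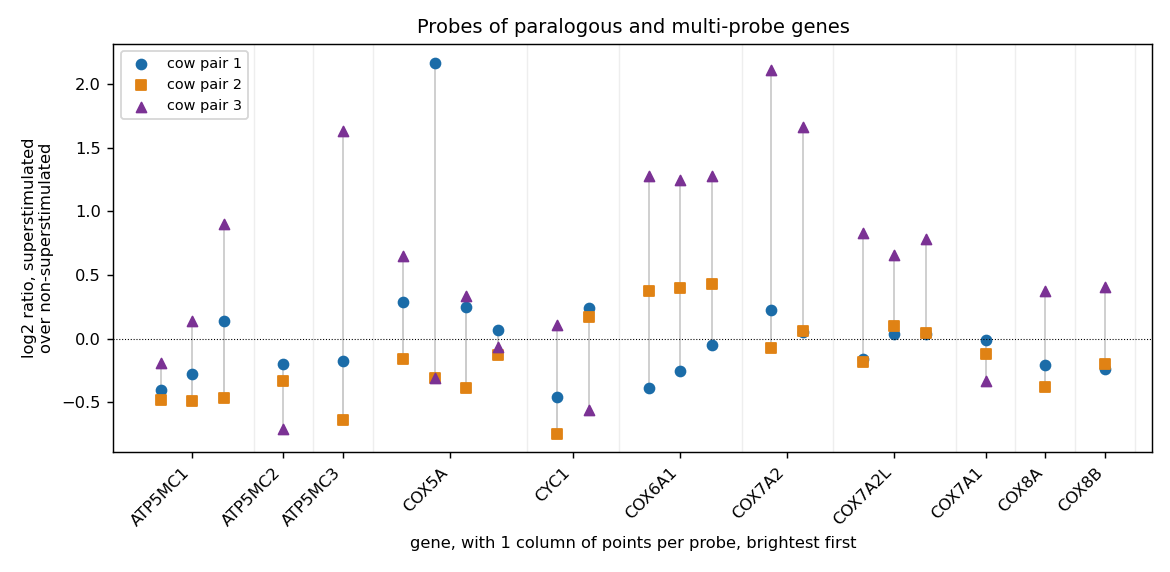
Log2 ratio of superstimulated over non-superstimulated in each cow pair for every probe of the named genes with related copies or discordant probes; each column of symbols is 1 probe, brightest first. The probes of COX6A1, COX7A2 and COX7A2L repeat each other, whereas those of ATP5MC1, COX5A and CYC1 do not.

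The 2 arrays of a pair gave the same sign for 22 of 42 members in pair 1, 27 in pair 2 and 34 in pair 3. These counts were not made over all genes. The median difference between both arrays was 0.31, 0.26 and 0.29, larger in size than the median ratio of the members in pairs 1 and 2 and smaller than that in pair 3. A part of the ratio that followed dye and slide was found for 15 members (35.7% against 32.4% of all genes). In pair 3 the member medians were 0.76 on the first slide and 0.81 on the swapped one.

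**Figure D4:**
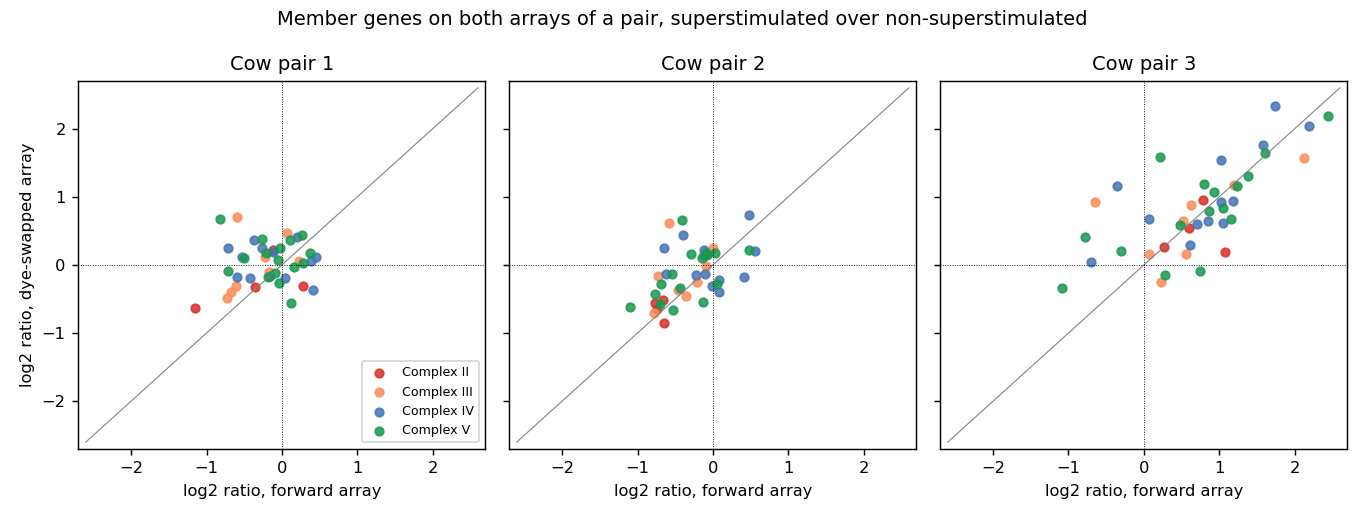
Log2 ratio of each member of complexes II to V on the first-slide array (x axis) against the dye-swapped array (y axis) of the same cow pair, coloured by complex; the diagonal marks equal values. Points gather around 0 in pair 1, lie mostly below 0 in pair 2 and extend to above 2 along the diagonal in pair 3.

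Genes that work with these complexes were described by the same measures. None of the lists had a gene past the threshold in the mean of 3 pairs. Subunits and an inhibitor listed under other names moved with the members: NDUFA4, a subunit of complex IV, ATP5MK and ATP5MJ, small subunits of the synthase, and ATP5IF1, its inhibitor, were all higher in pair 3, at 0.60 to 1.97. The ratios of ATP5MK were 0.14, 0.62 and 1.61, and those of ATP5MJ 0.10, 0.15 and 0.60. The 35 tested NDUF subunits of complex I had medians of 0.12, -0.21 and 0.82, and 22 of them were higher in pair 3 (62.9% against 27.3% of all genes). Electron carriers and carriers for ATP export (11 genes) had medians of -0.08, -0.22 and 0.82, with 7 higher in pair 3 (63.6%). CYCS, cytochrome c, chosen here after its values were seen, was at 14.99, 14.51 and 15.18 in superstimulated and 14.98, 15.06 and 11.68 in non-superstimulated cows. SLC25A3, which brings phosphate to the synthase, had ratios of -0.09, 0.50 and 0.62. SLC25A6, an exchanger of ADP and ATP, had 0.22, 0.16 and 0.17. The 11 genes of the tricarboxylic acid cycle had medians of 0.02, -0.27 and 0.68. Within it SUCLA2, the ATP-forming succinyl-CoA synthetase subunit, had -0.18, 3.48 and 2.95, and IDH3B, a subunit of isocitrate dehydrogenase, -0.19, -0.27 and -0.85.

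Assembly and expression factors did not show the shift of pair 3 to the same size. The 30 assembly factors of complexes II to V had medians of 0.00, -0.31 and 0.08, with 12 higher (40% against 27.3% of all genes) and 5 lower (16.7% against 19.6%) in pair 3. In pair 2, 16 were lower (53.3% against 21.8%). Whether they differ from the subunits was not tested. HIGD1A, which the platform calls HIGD1D and which regulates complex IV, had ratios of 0.24, 1.38 and 1.47, and COX15, an enzyme of haem A synthesis for complex IV, had -0.21, -0.29 and -0.24. The 11 regulators of mitochondrial genes had medians of 0.01, 0.01 and -0.06. Among them TFB2M, a mitochondrial transcription factor, had 0.13, 0.48 and 0.43, and ESRRA, a nuclear receptor that drives such genes, 0.37, 1.03 and -0.07. The granulosa markers had medians of -0.01, -0.16 and 0.01.

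**Figure D5:**
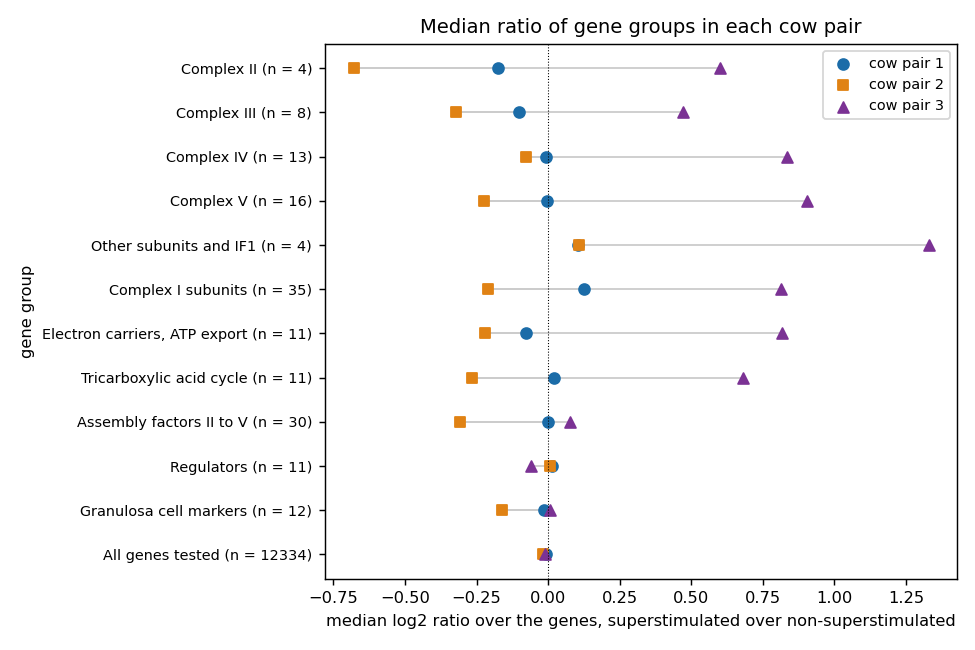
Median log2 ratio of superstimulated over non-superstimulated over the genes of each group, for the 3 cow pairs; n is the number of genes tested. The 4 complexes, complex I, the electron carriers and the tricarboxylic acid cycle have pair 3 medians of 0.47 to 0.90 (subunits under other names 1.33), against 0.08 for assembly factors and -0.01 for all genes.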

How the data were processed

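RNA of 6 cows was compared on 6 two-colour arrays as 3 pairs with a dye swap. Trizol extraction, a 2-round amplification and labelling by a chemical bond to guanine are given per the labels' protocols. Amplification of small inputs can distort levels. The deposited scanner tables hold foreground and background intensity per spot in red and green, per the file headers. The deposited table of log2 values, red over green with a normalization not given in the sources used here, served as an alternative. Its correlation with the scanner ratios was 0.739 to 0.868 on the same array and at most 0.335 on another, and its column medians were -0.0043, -0.0113, -0.035, -0.011, -0.00625 and -0.00788.

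Of 45220 spots, 8 without a name and 42 marked as ignored were left out, leaving 43753 probes and 1417 control spots. Background was corrected by normexp (offset 50), ratios were normalized by loess within arrays with control spots at weight 0, and a probe was kept if its foreground exceeded the 95th percentile of 756 negative controls in at least 1 channel on 3 of 6 arrays (31957 probes, 12334 genes). Symbols came from the platform annotation, 19 of the members' being updated through a RefSeq table of ARS-UCD2.0, and no sequence was used. Gene coordinates of that table served only to find the neighbour of EMC8. Swapped arrays were turned and averaged, and 3 pair means were tested against 0 with limma 3.58.1 in R 4.3.3 (lmFit, eBayes, Benjamini-Hochberg). Single pairs, their differences and the dye part were tested in a 6-array limma model. Separate channels after Aquantile gave the level in each cow. Array number limits the precision. The steps were tested on simulated data.

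The members and lists were chosen with earlier results of these data known. Values by pair are given for 22 chosen catalytic, core and paralogous subunits where present, the 2 largest and 2 smallest mean ratios of each complex among genes above the controls throughout, and the 2 smallest p of each pathway list. Alternatives changed the offset, loess, filter, probe choice, source, slide, block, sign and pairs used. Deviations from the group mean correlated across genes, between cows that share a number, at 0.176, 0.037 and 0.271, and between other cows at -0.257 to 0.232, so the numbers do not show that animals were matched. The labels call the cows of a group different animals. Plots used matplotlib 3.10.9 in Python 3.11.15.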

Additional observations from a re-analysis of the deposited data

How the results depend on the processing

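No member passed the threshold under any setting tried, and 0 of all genes did, except 1 gene when the 6 arrays counted as independent without a replicate block (lowest adjusted p 0.0298 by limma). With the pair as a replicate block (consensus correlation 0.802) 0 genes passed, with a lowest adjusted p of 0.555, and with 6 unpaired cows 0. Leaving out a pair moved the median of the members between -0.12 and 0.34, of complex II between -0.42 and 0.14, of complex III between -0.19 and 0.21, of complex IV between -0.00 and 0.45 and of complex V between -0.10 and 0.43. The members that differed between pairs were 19 to 32 without a pair, those higher in pair 3 were 30 to 33 and those lower in pair 2 were 11 to 20, with no count over all genes. In the deposited values these counts were 12, 14 and 1. With every sign turned the median of complex IV was -0.30, and each single ratio turns by construction.

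Of 390 values of the 26 named genes, 369 had the sign and the call reported above and 21 reversed, in 15 genes. Settings that changed only the error model or the probe filter left these mean ratios as they were, so their signs could not turn. The count of 369 is therefore no measure of stability. In the deposited values SDHD was at 0.062, COX7A1 at 0.0028 and COX7A2L at -0.46. The first slide alone gave SDHD 0.23, UQCRC1 -0.61, UQCRC2 -0.11 and ATP5F1A 0.088, and the swapped slide alone gave COX7A1 0.054, COX8A 0.22 and ATP5MC1 0.012. Leaving out a pair moved SDHA between -0.78 and 0.10, SDHB between -0.32 and 0.16, SDHC between -0.46 and 0.12, SDHD between -0.38 and 0.31, UQCRB between -0.14 and 1.00, UQCRC2 between -0.25 and 0.35, COX6A1 between -0.0039 and 0.83, COX7A2L between -0.17 and 0.34, COX8A between -0.29 and 0.083, ATP5F1B between -0.27 and 0.70 and ATP5MC3 between -0.41 and 0.73. The cause was not tested beyond the smaller number of pairs or arrays. Array signal sets a limit for UQCRC1, UQCRH and ATP5F1D, which lie close to the negative controls.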

Other observations

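One of the 4 probes of COX5A departed from the others in a single cow, in a comparison chosen after its values were seen. Its ratio in pair 1 was 1.84 on the first array and 2.50 on the swapped array, and its level was 12.78, 12.70 and 11.71 in superstimulated and 10.61, 13.00 and 12.02 in non-superstimulated cows. The low level thus lay in non-superstimulated cow 1, and both arrays of the pair gave a high ratio. The brightest probe of the gene had 15.01 and 14.72 in the cows of that pair.

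Cytochrome c and the succinyl-CoA synthetase subunit SUCLA2 had larger pair ratios than any subunit of complexes II to V, at 3.49 in pair 3 for CYCS and 3.48 in pair 2 for SUCLA2. IDH3A, a subunit of isocitrate dehydrogenase, had 0.56, -3.88 and 2.42, the opposite sign of SUCLA2 in pair 2. SUCLA2 stood at 9.98, 13.80 and 11.82 in superstimulated and 10.16, 10.32 and 8.87 in non-superstimulated cows, so its high cow was superstimulated cow 2. The 11 genes of the tricarboxylic acid cycle summed to a linear intensity of 25161 in non-superstimulated cow 3 and 49227 to 73034 in the other 5 cows.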
